A study of Mus musculus with 12 samples.

Results

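The 10 genes described here encode transcription factors and co-regulators that set and hold photoreceptor fate. They are Crx, Nrl, Nr2e3, Otx2, Rorb, Mef2d, Neurod1, Esrrb, Pias3 and Samd7. They were found by gene symbol, and all 10 have 1 entry in each deposited table, among 56748 entries of scaled counts and 55372 of TPM (a level corrected for transcript length and library size). RNA was sequenced from 2-month-old mice in 4 groups of 3 libraries. Control mice carried RiboTag and the i75-Rod-Cre transgene with intact Abca4, and Abca4Ko mice carried RiboTag, i75-Rod-Cre and Abca4-/-. RiboTag is an epitope-tagged ribosomal protein that Cre switches on, and i75-Rod-Cre expresses Cre under a rod promoter, so every mouse of every group carried both transgenes. In each genotype, rod TRAP libraries hold RNA from the immunoprecipitated tagged ribosomes of rods, and retina libraries hold RNA of the whole lysate before immunoprecipitation.

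Photoreceptor fate is set by a cascade of factors that bind to one another's genes and to the genes of the visual cascade. OTX2 commits retinal precursors to the photoreceptor path and switches on Crx. RORB and NEUROD1 act early in that path, and NRL with its target NR2E3 then turns the cell into a rod and keeps cone genes off. In the adult retina CRX and NRL go on driving the genes of rod phototransduction, and several of these factors are also made in cones and bipolar cells.

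CRX and OTX2 are homeodomain proteins that share the core motif TAATCC. The 250 bases before the annotated transcript starts are shown for the members that hold this motif or its complement GGATTA, which is in capitals, and for Nrl and Neurod1 as members of 2 other factor classes that lack it. The sequences are RefSeq promoters of build GRCm38.p6, read 5′ to 3′ on the strand of the gene.
Crx, chr7:15879956-15880205, minus strand: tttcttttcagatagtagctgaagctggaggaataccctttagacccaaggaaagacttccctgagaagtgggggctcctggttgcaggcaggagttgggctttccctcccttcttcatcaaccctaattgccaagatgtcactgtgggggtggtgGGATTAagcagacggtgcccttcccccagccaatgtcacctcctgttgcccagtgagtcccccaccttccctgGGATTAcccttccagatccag
Otx2, chr14:48665110-48665359, minus strand: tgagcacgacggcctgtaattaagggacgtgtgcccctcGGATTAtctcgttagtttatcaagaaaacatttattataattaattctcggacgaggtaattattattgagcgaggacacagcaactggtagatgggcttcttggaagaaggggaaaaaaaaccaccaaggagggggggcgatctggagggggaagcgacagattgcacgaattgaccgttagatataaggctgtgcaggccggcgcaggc
Samd7, chr3:30746043-30746292, plus strand: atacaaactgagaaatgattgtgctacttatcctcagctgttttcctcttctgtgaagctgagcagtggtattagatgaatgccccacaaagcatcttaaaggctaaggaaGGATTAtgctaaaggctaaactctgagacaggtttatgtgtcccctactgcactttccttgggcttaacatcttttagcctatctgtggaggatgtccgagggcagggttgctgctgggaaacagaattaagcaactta
Nrl, chr14:55524253-55524502, minus strand: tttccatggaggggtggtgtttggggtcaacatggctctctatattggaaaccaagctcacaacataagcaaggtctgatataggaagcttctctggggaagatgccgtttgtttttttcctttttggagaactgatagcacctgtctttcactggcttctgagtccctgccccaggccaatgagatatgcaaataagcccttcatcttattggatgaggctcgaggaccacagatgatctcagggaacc
Neurod1, chr2:79456637-79456886, minus strand: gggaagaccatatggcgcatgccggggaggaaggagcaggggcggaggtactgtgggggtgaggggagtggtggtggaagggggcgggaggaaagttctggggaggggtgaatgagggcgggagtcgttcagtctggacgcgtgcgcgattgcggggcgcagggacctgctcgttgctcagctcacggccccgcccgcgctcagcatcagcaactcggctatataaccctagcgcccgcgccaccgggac
These stretches held 2 copies in Crx, with first bases 94 and 21 bases before the start, and 1 copy in Samd7, 139 bases before the start. Otx2 has 4 annotated starts, and 1 copy lay 211 bases before one of them. In all, 3 of the 10 genes had the motif on either strand in such a window, beside 7.21% of all 27025 genes with a promoter and 5 of the 12 rod genes that had one. Genes with more starts have more windows. Counted by window, 3 of 16 of the members had it, beside 6.25% of all 32851. The NRL half-site TGCTGA was found in 4 of the 10 genes, Neurod1, Mef2d, Otx2 and Rorb, beside 18.0% of all genes. By window it was in 4 of 16, beside 16.1% of all windows. The E-box CANNTG, the kind of site that NEUROD1 binds, was in 7 of the 10, beside 69.3%. The nuclear receptor half-site AGGTCA and the MEF2 core (CTA and TAG with 4 bases between) were in 0 of the 10, beside 15.8% and 3.70% of all genes. A match of letters describes the sequence and is not a binding site. Of the members not shown, Nr2e3 is on chromosome 9, Rorb on 19, Esrrb on 12 and Mef2d and Pias3 on 3.

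Library totals of the scaled counts were 17096515 to 17097707 in rod TRAP and 17860761 to 17862326 in retina, where the authors' scaling had made them nearly equal. The reads behind them, recovered from gaps and doubled values among low counts, were 16.2 to 18.2 in units of 1000000 reads in rod TRAP and 14.8 to 23.2 in retina. The knockout was checked first. Abca4 was at 0.349% and 0.653% of the control mean in Abca4Ko rod TRAP replicates 1 and 2 and at 23.5% in replicate 3, and at 0.400%, 0.958% and 21.3% in Abca4Ko retina. The libraries labelled Abca4Ko replicate 3 therefore go against their label in part, and the fraction, genotype and interaction values that include them are followed below by values without them. The summed TPM of 20 rod genes was 269936 to 293968 in the 6 rod TRAP libraries and 113751 to 150004 in the 6 retina libraries, and that of 12 bipolar cell markers 78.6 to 101.1 and 960.2 to 2166. Transcript GC content moved with the fraction comparisons and with the genotype comparison in retina, and its values stand beside those results.

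In rods of control mice the fate factors spanned 48.8-fold in level per length. Nrl was the most abundant, at 4572, 5026 and 4879 TPM in replicates 1 to 3, with a mean of 4826 ± 232 (SD, n = 3). It made up 49.6% of the summed TPM of the 10 genes in control rod TRAP and between 51.5% and 53.4% in the other groups. Crx followed with 1722 ± 70.6 TPM and Nr2e3, the orphan nuclear receptor downstream of NRL, with 1129 ± 27.3 TPM. Esrrb, an oestrogen-related receptor active in rod energy metabolism, stood at 586.2 ± 44.4 TPM. These 4 genes kept their places in all 4 groups, and none overlapped its neighbour within 1 SD.

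The other 6 genes lay lower and nearer to one another. In control rod TRAP, Mef2d, a MADS-box factor that works with CRX, had 354.2 ± 13.3 TPM. Otx2 followed at 330.5 ± 8.66 and Neurod1, a basic helix-loop-helix factor, at 323.7 ± 6.52, and these neighbours did not differ beyond their spread. Samd7, a rod Polycomb-associated repressor, had 234.1 ± 8.10 TPM, Pias3, a SUMO ligase that acts on NR2E3 in rods, 131.5 ± 14.1 and Rorb 98.9 ± 8.67. In Abca4Ko rod TRAP the order of Mef2d and Otx2 was exchanged, but Otx2, Mef2d and Neurod1 each overlapped the next gene within 1 SD.

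In control retina the order was the same down to Otx2, and Pias3 then stood above Neurod1 and Samd7. Rorb was lowest in every group, with 24.6, 25.4 and 15.5 TPM in control retina. Pias3 and Neurod1 overlapped within 1 SD in both retina groups, as did Neurod1 and Samd7 in control retina. The replicates were closest in control rod TRAP, where the coefficient of variation of the 10 TPM values had a median of 3.92%, against 10.2% in Abca4Ko rod TRAP, 12.8% in control retina and 12.1% in Abca4Ko retina. The widest spread was that of Samd7 in control retina, 29.7%, with replicates at 70.2, 67.6 and 38.7 TPM.

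**Figure D1:**
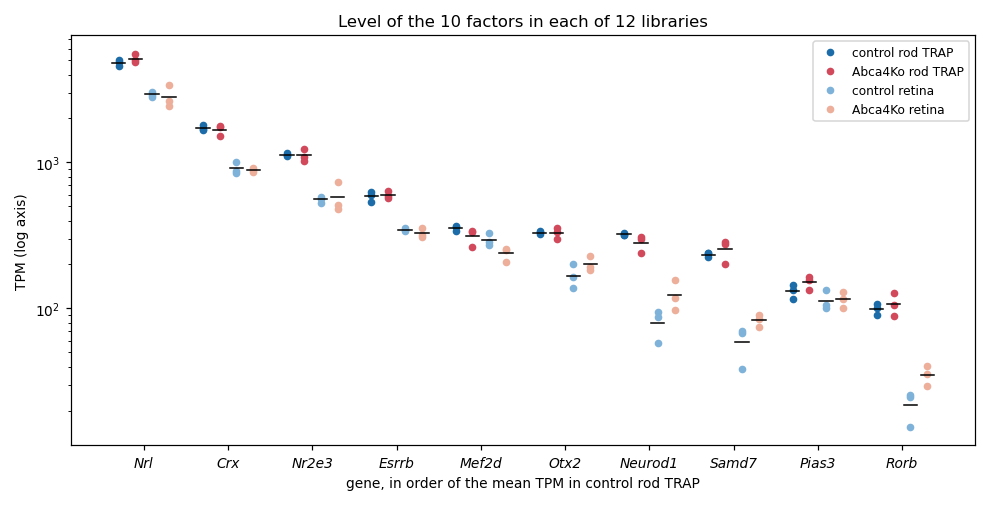
TPM of the 10 fate factors on a log axis in each of the 12 libraries, with points for libraries and black bars for the mean of 3 replicates. Nrl lies highest and Rorb lowest in every group, and the gap between rod TRAP and retina is widest for Rorb, Neurod1 and Samd7.

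The comparison of rod TRAP with retina asks which messages are held on rod ribosomes beyond their share of the whole tissue. In control mice all 10 fate factors were higher in rod TRAP than in retina by limma (adjusted p under 0.05), beside 36.1% of all 16286 genes tested that were higher and 39.3% that were lower. Their median log2 fold change was 1.27, against -0.05 over all genes. The largest differences were those of Rorb, Samd7 and Neurod1, and the smallest those of Mef2d and Pias3. A bulk lysate cannot tell fewer cells of a type from less RNA per cell.

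Among the homeodomain factors, Crx was at 1691, 1802 and 1671 TPM in control rod TRAP and at 876.4, 1012 and 851.3 in control retina. All rod TRAP values were above all retina values. Its log2 fold change was 1.22 ± 0.10 (SE, limma adjusted p 2.5e-07). Otx2 was at 321.0, 337.9 and 332.7 TPM against 163.4, 200.8 and 137.2, without overlap. Its log2 fold change was 1.31 ± 0.11 (limma adjusted p 3.8e-07).

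Nrl, Nr2e3 and Esrrb also rose. Nrl was at 2915, 2821 and 3032 TPM in control retina, below each of its 3 rod TRAP values. The rise of Nrl was 1.01 ± 0.12 on the log2 scale (limma adjusted p 8.8e-06). Nr2e3 was at 1116, 1161 and 1111 TPM in rod TRAP and at 565.5, 578.6 and 528.8 in retina. The log2 fold change of Nr2e3 was 1.33 ± 0.11 and that of Esrrb 1.06 ± 0.11, and neither gene's groups overlapped.

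Rorb, Neurod1 and Samd7 stood out before the correction for transcript GC that is given below. Rorb, a nuclear receptor upstream of Nrl, was at 106.9, 100.2 and 89.7 TPM in control rod TRAP, above each of its retina values. Its rise was 2.65 ± 0.17 on the log2 scale (limma adjusted p 2.4e-08). Neurod1 was at 319.8, 331.2 and 320.0 TPM in rod TRAP and at 87.7, 94.0 and 57.9 in retina, a log2 fold change of 2.33 ± 0.15. Samd7 was at 238.3, 239.3 and 224.8 TPM in rod TRAP, far above its retina values, with a log2 fold change of 2.34 ± 0.18. For each of the 3 genes control retina replicate 3 was the lowest library. Without it the log2 fold changes were 2.22 for Rorb, 1.94 for Neurod1 and 1.88 for Samd7, and all stayed past the threshold.

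The size of every rise depended on the scaling, and for Mef2d and Pias3 the sign did too. On the scaled counts as deposited, Mef2d read 10920, 10791 and 10542 in control rod TRAP and 11152, 11921 and 11581 in control retina, so every rod TRAP value was the lower. In TPM it read 358.8, 364.5 and 339.2 against 269.9, 327.3 and 283.9, so every rod TRAP value was the higher. After TMM scaling (trimmed mean of M values, used for all log2 fold changes here unless stated), its log2 fold change was 0.59 ± 0.10 (SE, limma adjusted p 0.00021). With the deposited totals alone it was -0.040 (limma adjusted p 0.70). That scaling put the median gene at -0.62, so Mef2d lay above the median gene under both. Pias3 behaved alike, with 0.53 ± 0.11 after TMM, -0.10 on the deposited totals (adjusted p 0.41) and 0.22 on the log2(TPM + 1) scale (adjusted p 0.16). On the deposited totals Nrl had 0.38, Esrrb 0.44, Crx 0.60, Otx2 0.69 and Nr2e3 0.70. Neurod1 had 1.71, Samd7 1.72 and Rorb 2.03 there, and all 8 passed the threshold.

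In Abca4Ko mice the same 10 genes were higher in rod TRAP than in retina, beside 29.5% of 16036 genes tested that were higher and 34.3% that were lower. The control and Abca4Ko comparisons have no library in common. Rorb again had the largest log2 fold change, 1.94 ± 0.20 (SE), with 89.2, 106.4 and 128.3 TPM in rod TRAP and 35.8, 29.5 and 40.2 in retina. Samd7 followed with 1.83 ± 0.18 and Neurod1 with 1.42 ± 0.18. Nr2e3, Crx, Esrrb, Nrl and Otx2 lay between 1.24 and 0.94. Pias3 and Mef2d had 0.61 and 0.60, and on the deposited totals 0.10 and 0.09, neither past the threshold.

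The Abca4Ko fraction calls were less firm than those of the controls. Without both libraries labelled Abca4Ko replicate 3, 7 of the 10 passed. The genes lost were Nrl (log2 fold change 0.78, limma adjusted p 0.067), Mef2d (0.33, adjusted p 0.27) and Pias3 (0.36, adjusted p 0.17). Without Abca4Ko retina replicate 2, Nrl (adjusted p 0.063) and Nr2e3 (adjusted p 0.052) missed the threshold, and without Abca4Ko retina replicate 3 Mef2d did (adjusted p 0.081).

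The size of these differences followed the GC content of the transcripts. The longest coding transcript (GENCODE M21) had 41.6% GC in Rorb, 43.6% in Neurod1, 46.8% in Otx2, 47.6% in Samd7, 49.2% in Crx and 52.3% in Nr2e3, and between 54.4% and 55.0% in Nrl, Pias3, Esrrb and Mef2d. Over the 10 genes, Spearman's rho between GC and the control log2 fold change was -0.85. Over 13315 of the genes tested it was -0.49, and 2954 genes under 45% GC had a median of 1.38, against -0.66 for 4140 genes at 54% or more. In Abca4Ko the rho was -0.73 over the 10 genes and -0.42 over 13061 genes. These are correlations across genes, which are not independent replicates.

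The trend with GC was then removed within each library, a step chosen after seeing the data. All 10 genes still rose in both genotypes, with log2 fold changes of 0.94 (Otx2) to 2.09 (Samd7) in control and 0.78 (Otx2) to 1.75 (Samd7) in Abca4Ko. Their order changed. Rorb went from 2.65 to 1.24 and Neurod1 from 2.33 to 1.30 in control, while Nrl went from 1.01 to 1.65, Esrrb from 1.06 to 1.75 and Mef2d from 0.59 to 1.28. Samd7 was highest in both genotypes after correction, where Rorb had been before it. What set the order among the genes was not tested beyond this correction.

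**Figure D2:**
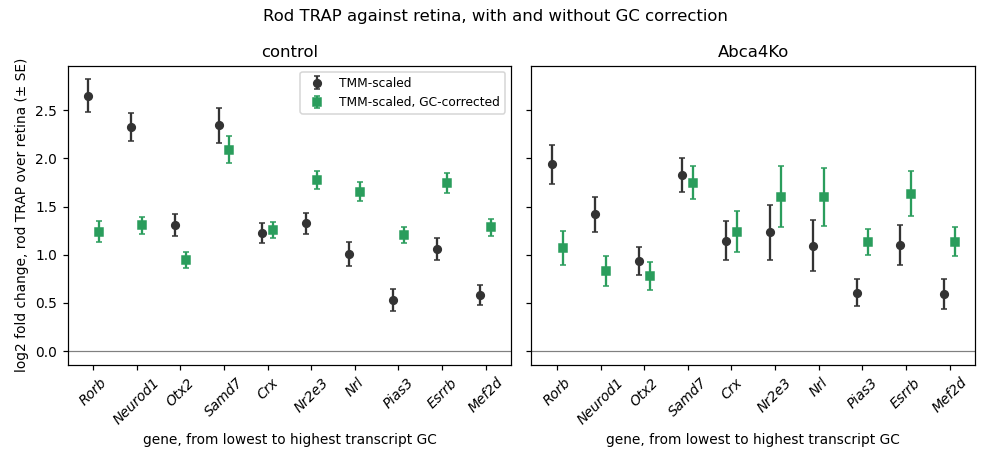
Log2 fold change of rod TRAP over retina for each fate factor in control (left) and Abca4Ko (right) mice, with bars of ± 1 SE from limma, before (black circles) and after (green squares) correction for transcript GC. Genes run from lowest to highest GC, and all 20 corrected points lie above 0.78 while the order among genes changes.

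**Figure D3:**
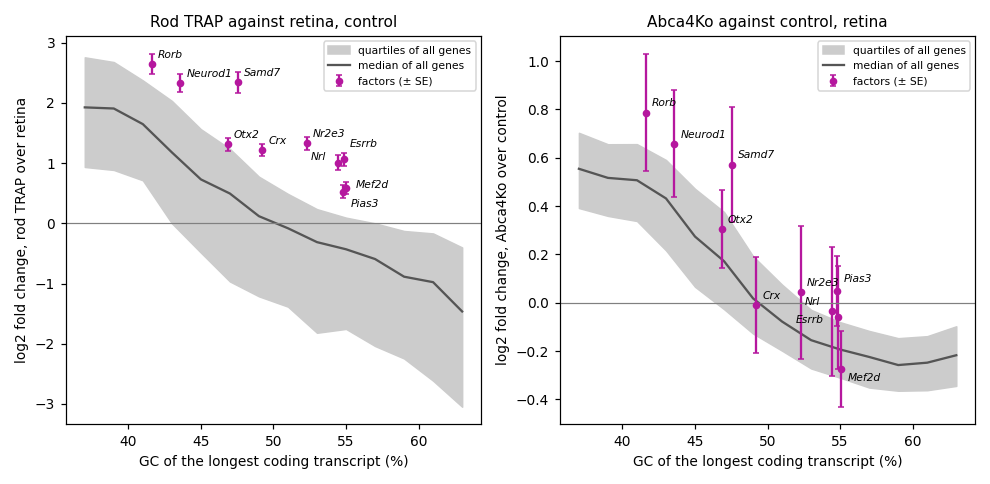
Log2 fold change against transcript GC content for all genes (grey line, median in bins of 2% GC, with quartiles as the band) and for the fate factors (purple, ± 1 SE). On the left, rod TRAP over retina in control, the factors lie above the median line along its whole slope. On the right, Abca4Ko over control in retina, they run down with the line from Rorb to Mef2d.

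To ask whether the factors differ among themselves in rod enrichment, free of the scaling of libraries, each was measured against Nrl in the same library. The level of Rorb, on the log2 scale of scaled counts, minus that of Nrl was -3.27 ± 0.25 in rod TRAP and -4.51 ± 0.60 in retina (SD, n = 6 each), and the libraries of the fractions did not overlap. The difference of 1.25 had an adjusted p of 0.015 (exact two-sided permutation test, Benjamini-Hochberg over 9 genes). Samd7 gained 1.04 (adjusted p 0.015, same exact test), Neurod1 0.83 (adjusted p 0.016) and Nr2e3 0.23 (adjusted p 0.015) on Nrl in rod TRAP. Pias3 lost 0.48 (adjusted p 0.015) and Mef2d 0.46 (adjusted p 0.032). Crx, Otx2 and Esrrb moved by 0.13, 0.07 and 0.03, with adjusted p of 0.26, 0.71 and 0.71 in the exact test.

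Taken by genotype, the values of the genes that gained were larger in control than in Abca4Ko. Rorb gained 1.65 in control and 0.85 in Abca4Ko, Samd7 1.34 and 0.73, Neurod1 1.33 and 0.33 and Nr2e3 0.32 and 0.14, while Otx2 stood at 0.31 and -0.16. Pias3 stood at -0.48 and -0.49 and Mef2d at -0.42 and -0.50. Rorb was the one gene whose fractions did not overlap in either genotype. With 3 against 3 libraries the exact test allows no p below 0.10, so none of the 9 could pass within a genotype, and the difference between the genotypes was not tested on this measure.

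Same-numbered libraries of the 2 fractions were taken as pairs, which their values do not settle. The test was also run over these 6 pairs by exact sign flips, whose smallest p is 0.031. With that replicate block Neurod1 missed the threshold (adjusted p 0.080) and Crx passed it (adjusted p 0.047). Without both libraries labelled Abca4Ko replicate 3, Mef2d missed it (adjusted p 0.11, exact permutation test), and leaving out each library in turn put Mef2d between 0.0097 and 0.065. After GC correction Rorb, Neurod1, Otx2 and Crx changed sides. Rorb then lost 0.42 on Nrl (exact permutation adjusted p 0.035), Neurod1 0.51 (0.019), Otx2 0.72 (0.019) and Crx 0.35 (0.024), with Pias3 at -0.46 (0.024) and Mef2d at -0.42 (0.049). Samd7 stood at 0.33 (adjusted p 0.070, and 0.040 with the replicate block), and Nr2e3 at 0.07 (0.13). Pias3 and Mef2d were lower relative to Nrl in rod TRAP with and without the correction. Their transcript GC of 54.8% and 55.0% is close to the 54.4% of Nrl, so a correction for GC could hardly change these differences. The direction for Rorb, Neurod1, Otx2 and Crx rested on the correction.

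**Figure D4:**
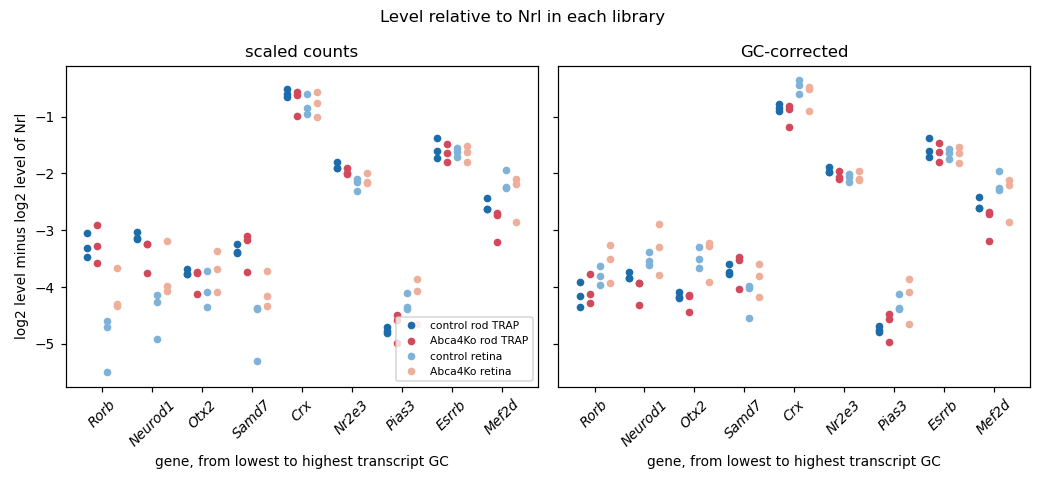
Log2 level of each factor minus that of Nrl in each of the 12 libraries, from scaled counts (left) and after GC correction (right), with genes from lowest to highest GC and colours for the 4 groups. On the left Rorb, Neurod1 and Samd7 lie closer to Nrl in rod TRAP than in retina, and on the right Rorb, Neurod1 and Otx2 lie closer to it in retina, while Pias3 and Mef2d lie closer to Nrl in retina in both panels.

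Other lists place these values. Of 20 rod genes driven by CRX and NRL, such as Gnat1 and Pde6b, all 20 rose in control rod TRAP. Their median was 1.31 on the log2 scale, beside 1.27 for the fate factors. After GC correction 19 of the rod genes were called higher and 1 lower, with a median of 1.77, beside 1.29 for the fate factors. Rp1, a ciliary microtubule protein of the rod outer segment, rose most (4.63 ± 0.16), and by 2.92 after GC correction. Of 12 cone genes, 11 fell, with a median of -1.65, in the libraries where the fate factors rose. Cngb3, a cone channel subunit, rose by 0.87 but fell by 0.81 after GC correction, and reached at most 3.9 TPM in any library.

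Of 23 further regulators of retinal cell fate, 21 could be tested in control, of which 7 rose and 12 fell, with a median of -1.15. Over all 16286 genes tested, 36.1% rose and 39.3% fell, with a median of -0.05. Sp4, a zinc-finger factor, rose most, from 15.6, 17.9 and 8.2 TPM in retina to 105.2, 101.0 and 99.5 in rod TRAP (log2 fold change 3.21 ± 0.17). Tbx2, a factor of cone and inner retinal cells, fell by 5.19 ± 0.20 on the log2 scale. Onecut2, Foxn4 and Ikzf1 were listed at 0 in all 6 rod TRAP libraries, and Foxn4 was also at 0 in every control retina library.

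Relatives of the members were taken in the same comparison. Of 18 paralogs, 17 could be tested, of which 7 rose and 8 fell, with a median of 0.16. As a list they split about as all genes did, of which 36.1% rose and 39.3% fell. Mef2c went from 18.0, 20.5 and 9.5 TPM in control retina to 156.6, 156.4 and 163.0 in control rod TRAP, a log2 fold change of 3.51 ± 0.15, and 1.95 after GC correction. Its relative Mef2d had 0.59 and 1.28 on the same scales. Neurod2 fell by 4.30 and Nr2e1 by 3.32 in control, where their relatives Neurod1 and Nr2e3 rose. In Abca4Ko, the paralogs that fell most were Neurod4 (-4.49) and Neurod2 (-4.14). Sp4, Tbx2, Mef2c, Rp1, Ccdc136 and Gngt2 moved the same way in Abca4Ko, with log2 fold changes of 2.38, -4.82, 2.55, 3.70, -3.01 and -1.47.

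Loss of Abca4 did not move any fate factor past the threshold in rod TRAP. By limma, 0 of 10 were called, beside 1.12% of 13104 genes. An unadjusted p under 0.05 was met by 1 of the 10, Pias3, beside 1369 of the 13104 genes. Log2 fold changes of Abca4Ko over control lay between -0.15 and 0.24. The SE of the 10 genes lay between 0.07 and 0.13.

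Nrl was at 4572, 5026 and 4879 TPM in control rod TRAP and at 5557, 5000 and 4839 in Abca4Ko rod TRAP, with overlap. The log2 difference was 0.16 ± 0.12 (limma adjusted p 0.70). Abca4Ko replicate 1 was its highest library in both fractions, also for Nr2e3, and without that rod TRAP library the change of Nrl was 0.02. Crx (0.03 ± 0.08), Otx2 (0.04 ± 0.07), Nr2e3 (0.06 ± 0.13) and Esrrb (0.10 ± 0.09) also overlapped between genotypes.

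The scaled counts of 3 of the 10 did not overlap between the genotypes in rod TRAP, beside 16.1% of all genes. Pias3 was at 2268, 2437 and 2326 in control and 2583, 2788 and 2876 in Abca4Ko, a log2 fold change of 0.24 ± 0.07 (limma adjusted p 0.24). Its TPM values did overlap. Mef2d was at 10920, 10791 and 10542 in control and 8819, 10040 and 10041 in Abca4Ko (-0.15 ± 0.07, adjusted p 0.52), and Neurod1 at 7179, 7501 and 7380 against 6023, 7032 and 6869 (-0.14 ± 0.08, adjusted p 0.56). Without Abca4Ko rod TRAP replicate 1, Pias3 (0.24, adjusted p 0.027) and Samd7 (0.22, adjusted p 0.025) were called. Without the library labelled Abca4Ko replicate 3, no factor was called and Pias3 had 0.22 (adjusted p 0.38). Mef2d, Pias3 and Samd7 lie on chromosome 3, as does Abca4, and Neurod1 lies on chromosome 2. Any part of the position of these genes was not tested.

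In whole retina again 0 of 10 were called by limma, beside 0.112% of 16964 genes. An unadjusted p under 0.05 was met by 3 of the 10, beside 2023 of the 16964 genes. The 3 were Rorb, Neurod1 and Samd7. In control, Rorb had scaled counts of 2016, 1905 and 1218. In Abca4Ko it had 3323, 2263 and 3134, a difference of 0.79 ± 0.24 on the log2 scale (limma adjusted p 0.41). Neurod1 was at 2740, 2604 and 1817 against 3912, 2911 and 4379 (0.66 ± 0.22, adjusted p 0.41), and Samd7 at 2519, 2229 and 1393 against 3267, 2560 and 3006 (0.57 ± 0.24, adjusted p 0.41).

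Of the 10 genes, 5 did not overlap between the genotypes in retina, beside 17.0% of all genes. Besides these 3, Otx2 was higher in every Abca4Ko library (0.30 ± 0.16, adjusted p 0.45) and Mef2d lower (-0.27 ± 0.16, adjusted p 0.47). Control retina replicate 3 was lowest of all 12 libraries for Rorb, Neurod1, Samd7 and Otx2. In it, the log2 difference of a gene from the other 2 control retina libraries ran with transcript GC (Spearman's rho 0.63 over 13145 genes). The other retina libraries had such rho between -0.51 and 0.57. Without control retina replicate 3, Rorb had 0.58, Neurod1 0.49 and Samd7 0.34. Without the library labelled Abca4Ko replicate 3, the highest of the 3 for Neurod1, they had 0.77, 0.58 and 0.60 (limma adjusted p 0.65 for each). Nrl (-0.04), Crx (-0.01), Nr2e3 (0.04), Esrrb (-0.06) and Pias3 (0.05) overlapped.

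GC content moved with this comparison as well. Over 13669 genes, Spearman's rho between GC and the log2 fold change was -0.69, and over the 10 factors -0.90. The 3007 genes under 45% GC had a median of 0.46 and the 4258 genes at 54% or more one of -0.22. After GC correction Rorb had 0.33 ± 0.17, Neurod1 0.28 ± 0.16, Samd7 0.44 ± 0.21, Otx2 0.12 ± 0.15 and Mef2d -0.08 ± 0.17, all with an adjusted p of 0.84 or more. In rod TRAP the rho over 10782 genes was 0.12, and there the correction moved no factor by more than 0.04.

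**Figure D5:**
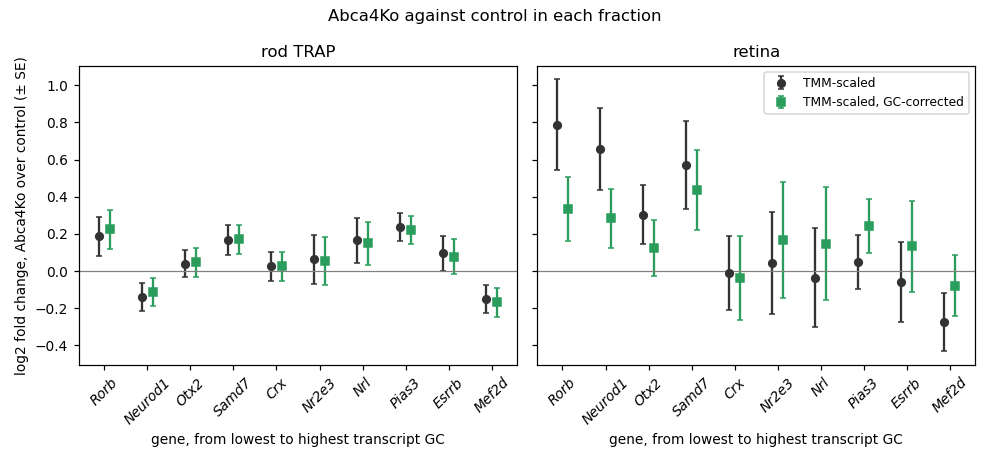
Log2 fold change of Abca4Ko over control for each fate factor in rod TRAP (left) and retina (right), with bars of ± 1 SE from limma, before (black circles) and after (green squares) GC correction. In rod TRAP all points lie between -0.17 and 0.24, and in retina the points of Rorb, Neurod1 and Samd7 come down from 0.79, 0.66 and 0.57 to 0.33, 0.28 and 0.44.

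The difference between the genotype effects of the 2 fractions was tested as an interaction over all 12 libraries. None of the 10 was called by limma, beside 0.00579% of 17273 genes. An unadjusted p under 0.05 was met by 1 of them, Neurod1, beside 1947 of the 17273 genes. Neurod1 was lower in all Abca4Ko libraries than in all control libraries in rod TRAP and higher in all of them in retina. Neither difference passed its own test. The interaction of Neurod1 was -0.81 ± 0.25 (SE, limma adjusted p 0.41). Rorb (-0.61 ± 0.29, adjusted p 0.45) and Samd7 (-0.41 ± 0.28, adjusted p 0.58) had values of the same sign. Without both libraries labelled Abca4Ko replicate 3, Neurod1 had -0.77, Rorb -0.72 and Samd7 -0.51. Spearman's rho between GC and the interaction was 0.84 over the 10 genes. Over 13769 of the genes tested it was 0.65. After GC correction Neurod1 had -0.46 ± 0.18 (limma adjusted p 0.88), Rorb -0.17 and Samd7 -0.31, and the retina groups of Neurod1 overlapped.

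The lists beside the factors held few calls between genotypes. In rod TRAP, 0 of 20 rod genes, 0 of 16 further regulators and 0 of 11 paralogs tested were called. At an unadjusted p under 0.05 there were 0, 2 and 1, beside 1369 of all 13104 genes. Of 12 cone genes, 2 rose past the threshold, 9 had an unadjusted p under 0.05 and 10 lay above 0, with a median of 0.40 against 0.00 over all genes. Those called were Gngt2, the cone transducin gamma subunit, from 58.9, 64.8 and 62.3 TPM to 100.6, 108.1 and 93.6 (0.69 ± 0.12, limma adjusted p 0.022), and Kcne2, a potassium channel subunit, from 14.1, 14.7 and 13.8 TPM to 22.2, 22.7 and 21.9 (0.70 ± 0.12, adjusted p 0.018). Without the library labelled Abca4Ko replicate 3, Gngt2 had 0.79 (adjusted p 0.015) and Kcne2 0.76 (adjusted p 0.026). Both calls were lost without Abca4Ko rod TRAP replicate 2 (adjusted p 0.077 and 0.052) and without any 1 of the 3 control libraries (adjusted p 0.12 to 0.14). The summed TPM of the 12 cone genes in rod TRAP was 611.2 to 712.0 in control and 680.5 to 896.9 in Abca4Ko. Their sum in retina went the other way, with 2422 to 2715 in control and 1637 to 2370 in Abca4Ko. In retina no gene of the 4 lists was called by limma. At an unadjusted p under 0.05 there were 2 rod genes, 2 cone genes, 4 further regulators and 7 paralogs, beside 2023 of all 16964 genes. In the interaction none was called either, with 2, 8, 3 and 8 at that level, beside 1947 of all 17273 genes.

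Last, the genes whose TPM across the 12 libraries most resembled that of a member were ranked among 10350 genes with a mean of at least 5 TPM, by Pearson's r of log2(TPM + 1). For Nrl they included Sag (0.996), Gnat1 (0.994), Slc25a5 (0.988) and Rom1 (0.987), of which Sag, Gnat1 and Rom1 are rod phototransduction or disc genes and Slc25a5 is a mitochondrial carrier. For Otx2 they were Trip4 (0.996), Syne1 (0.995), Pptc7 (0.995), Kif1b (0.995) and Ric3 (0.995), none of them on the rod list. The 12 libraries comprise both fractions. Within the 6 rod TRAP libraries r was 0.61 (Rom1) to 0.98 (Sag) for the genes named for Nrl and 0.83 to 0.93 for those of Otx2, and within the 6 retina libraries 0.92 to 0.99 and 0.98 to 0.99.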

How the data were processed

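The 12 libraries fell into 4 groups of 3 by their labels. Mice were perfused with cycloheximide, and cDNA was made with a low-input kit from 5 ng (retina) or 10 ng (rod TRAP) of RNA. The submitters' processing notes name CASAVA 1.8.2, HISAT2, DESeq2, edgeR and build GRCm39, without their roles, and the counter and annotation are not given in the sources used here. Nothing states whether a library was 1 animal, so p-values measure the spread between these libraries.

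The authors deposited scaled counts, treated here as a score because the read counts of each library had been multiplied by 1 factor and rounded, and a table of TPM per library. A count test was therefore not used. Scaled counts were rescaled by TMM (trims 0.3 and 0.05) and tested as log2(CPM + 0.5) with limma 3.58.1 (trend, robust) in R 4.3.3, two-sided, for genes with at least 10 in at least 3 libraries and with Benjamini-Hochberg adjustment over all genes. Low genes change by more than this scale shows. GC correction removed a lowess curve (span 0.3) of log2 CPM on transcript GC in each library and was added after seeing the data. The fits and the recovery of read totals were tested on simulated data. Other steps used Python 3.11.15, numpy 2.4.6, scipy 1.17.1 and pandas 2.3.3.

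Same-numbered rod TRAP and retina libraries of a genotype deviated together in every pair (r 0.23 to 0.54). Differently numbered ones had r of -0.60 to 0.36, which overlaps that range. The numbers were taken to pair the fractions, which these values do not settle. The genes and lists were chosen with earlier results of these data known. Besides the 10 factors and Abca4, the genes named are the largest called rise and the 2 largest called falls of each list between fractions, every gene called between genotypes, and the 5 genes most like Nrl and Otx2. Some genes that this rule selects are not reported here. Promoters are of GRCm38.p6, not the build of the files, and were matched by symbol (16 promoters for 10 genes).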

Additional observations from a re-analysis of the deposited data

Results flagged for a closer look

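Neurod1 lay below control in every Abca4Ko rod TRAP library and above it in every Abca4Ko retina library, and neither difference passed limma's test (adjusted p 0.56 and 0.41). The interaction was -0.81 on the log2 scale (limma adjusted p 0.41), and -0.46 after GC correction (adjusted p 0.88), where the retina groups overlapped.

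The level relative to Nrl singled out 4 values among 18 groups of 6 libraries, each a library far from the other 5 by Dixon's criterion, which chance alone meets in about 1 group in 20. In rod TRAP, Abca4Ko replicate 1 stood at -0.98 for Crx (others -0.65 to -0.51), at -3.76 for Neurod1 (others -3.24 to -3.03) and at -4.12 for Otx2 (others -3.77 to -3.68). In retina, Abca4Ko replicate 1 stood at -2.85 for Mef2d (others -2.25 to -1.94). All 4 share the high Nrl value of that replicate number. In the same replicate, the log2 difference of a gene from the other 2 libraries of its group ran against transcript length, with Spearman's rho of -0.49 over 10240 genes in rod TRAP and -0.34 over 12917 genes in retina. The part of transcript length in these values was not tested.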

How the results depend on the processing

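In control, 10 of 10 factors were called higher in rod TRAP under every alternative except the deposited totals without TMM (8 called, Mef2d at -0.040 and Pias3 at -0.10) and log2(TPM + 1) (9 called). Without TMM the control calls over all genes also went from 5873 higher and 6398 lower to 3415 and 9549, and those in Abca4Ko from 4731 and 5499 to 2282 and 7814. In Abca4Ko the count of factors ranged from 7 to 10 with libraries left out. Calls over all genes there fell from 10230 to 5541 without both libraries labelled Abca4Ko replicate 3. The replicate block changed no call of a factor between fractions by limma.

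Between genotypes, leaving out 1 library gave 0 to 2 called factors in rod TRAP, and 0 in retina and in the interaction. All other alternatives gave 0. Calls over all genes ranged from 28 to 598 in rod TRAP (147 as reported), from 1 to 63 in retina (19) and from 1 to 15 in the interaction (1). Genotype libraries share only a number (r of same-numbered libraries -0.52 to 0.03), and with the replicate block 146 and 33 genes were called in rod TRAP and retina.

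Of the 9 differences from Nrl, 6 passed, and 5 or 6 did with a library left out. After GC correction, with and without the replicate block, Crx stood at -0.35, Otx2 at -0.72, Rorb at -0.42 and Neurod1 at -0.51, each with the opposite sign and past the threshold. With Crx in place of Nrl as the reference, without GC correction, Nr2e3 stood at 0.10 and missed the threshold (exact permutation adjusted p 0.46). Rorb (1.11), Samd7 (0.90), Neurod1 (0.69), Pias3 (-0.62) and Mef2d (-0.59) still passed it. Ordering by CPM without length moved 6 genes to another place in control rod TRAP, 8 in Abca4Ko rod TRAP, 3 in control retina and 5 in Abca4Ko retina, with Nrl and Crx in the leading places throughout. With 3 libraries a group, the SE of the factors in retina, 0.15 to 0.28, limits what could be called between genotypes.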
